A study of Mus musculus with 12 samples.

Results

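The 10 liver genes studied here handle alcohols, aldehydes and retinoids, and were followed in 12 mouse livers. They are the alcohol dehydrogenases Adh1, Adh4, Adh5 and Adh7, the transcribed pseudogene Adh6-ps1, the aldehyde dehydrogenases Aldh1a1, Aldh1a7 and Aldh2, the retinoic acid hydroxylase Cyp26a1 and the plasma retinol carrier Rbp4. The genes were chosen by name, with earlier results of these data known. They are 10 of the 52636 gene identifiers in the count files, and all 10 were among the 12453 genes that passed the filter on low counts. VDD-F1 mice (n = 6) were C57Bl/6J offspring exposed before birth to vitamin D deficiency, and VDS-F1 mice (n = 6) were offspring of vitamin D sufficient dams. The dams ate the deficient or the sufficient diet from before mating through pregnancy, and all ate the sufficient diet after delivery. Offspring of both groups ate the sufficient diet after weaning. Only the deficient dams also received calcium gluconate, so calcium and vitamin D cannot be told apart. The study states that VDD-F1 pups were still short of vitamin D early in life, so deficiency before and after birth cannot be told apart either. The males' livers were taken at 16 weeks of age, and total RNA from bulk tissue was sequenced after ribosomal RNA removal. In bulk tissue, fewer cells of a type and less RNA per cell cannot be told apart.

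Class I, III and IV alcohol dehydrogenases (Adh1, Adh5, Adh7) and the class II enzyme Adh4 oxidise ethanol and other alcohols, retinol among them, to aldehydes. Aldehyde dehydrogenases then make the acid: Aldh2 turns acetaldehyde into acetate in mitochondria, and cytosolic Aldh1a1 turns retinaldehyde into retinoic acid, the ligand of the retinoic acid receptors. Retinoic acid is cleared by Cyp26a1, whose transcription it induces, and retinol leaves the hepatocyte bound to Rbp4.

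The genes lie in 3 neighbourhoods and 1 separate locus (GRCm38, GENCODE annotation). Adh7, Adh1, Adh6-ps1, Adh4 and Adh5 stand in that order on the plus strand of chromosome 3, between 138217760, where Adh7 (ENSMUSG00000055301.8) starts, and 138455499, where Adh5 (ENSMUSG00000028138.8) ends. Within it, Adh1 (ENSMUSG00000074207.10) spans 138260991 to 138290698, Adh6-ps1 (ENSMUSG00000090306.5) 138374121 to 138395002 and Adh4 (ENSMUSG00000037797.14) 138415466 to 138430892. Aldh1a1 (ENSMUSG00000053279.7, plus strand, 20492715 to 20643465) and Aldh1a7 (ENSMUSG00000024747.3, minus strand, 20692953 to 20727562) are neighbours on chromosome 19. Cyp26a1 (ENSMUSG00000024987.5, plus strand, 37697798 to 37701536) and Rbp4 (ENSMUSG00000024990.12, minus strand, 38116629 to 38125281) lie farther along the same chromosome. Aldh2 (ENSMUSG00000029455.14) is on the minus strand of chromosome 5, from 121566027 to 121593824.

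The relatives differ enough in sequence to be counted apart, with a single close pair. The coding sequences of Aldh1a1 and Aldh1a7 were identical at 91.7% of 1502 aligned bases and their translated proteins, both of 501 residues, at 90.6%. Adh1 shared 67.6% of aligned residues with Adh7, 64.4% with Adh5 and 54.7% with Adh4. Of all 100-base windows of the longest transcripts of the 10 genes, a single window recurred in another gene, shared by Aldh1a1 and Aldh1a7. Of 50-base windows, Aldh1a1 and Aldh1a7 shared 151, which is 6.54% of those of Aldh1a1 and 7.49% of those of Aldh1a7, and Adh1 shared 4 with Adh6-ps1. Fragments that fell in such windows could have been assigned to either gene or left out as mapping to both, and 6.69% to 8.92% of fragments per library mapped to several places.

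The promoters of the Aldh1a pair were identical at 92.4% of 225 aligned bases, with 150 further bases in gaps. The 90 bases before the start site, from the closest-matching stretch, are shown because the log2-fold changes of these neighbours had opposite signs. They were taken from RefSeq promoter sequences (GRCm38.p6), which matched 8 of the 10 genes, at chr19:20601878-20601967 on the plus strand for Aldh1a1, from the second of its listed promoters, and at chr19:20727557-20727646 on the minus strand for Aldh1a7. Capitals mark the 3 of 90 bases that differ. The log2-fold change of Aldh1a7 was not resolved from 0 (adjusted p = 0.409, edgeR), and a part of these bases in the levels was not tested.
Aldh1a1: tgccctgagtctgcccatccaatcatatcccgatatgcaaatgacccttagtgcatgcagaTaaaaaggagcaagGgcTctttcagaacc
Aldh1a7: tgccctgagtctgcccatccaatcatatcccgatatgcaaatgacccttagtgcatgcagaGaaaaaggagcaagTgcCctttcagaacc

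Cyp26a1 was the member whose promoter held a retinoic acid receptor motif. The motif searched for was a direct repeat of a hexamer (AGGTCA or AGTTCA or GGTTCA or GGGTCA) with 5 bases of any kind between the copies, on both strands. It was found in 32 of 32851 promoters of equal length, 250 bases before to 50 after the start site (0.0974%), and among the promoters of the 8 members with a sequence only in that of Cyp26a1. The same repeat with 2 bases between the copies, which stood in 0.268% of promoters, was in no member's promoter, whereas a single hexamer was in 43.7% of promoters. The 250 bases before the Cyp26a1 start site (chr19:37697558-37697807, plus strand, GRCm38.p6) follow, with the repeat in capitals, beginning 32 bases before the start site. The match overlaps both of the hexamers found in this promoter and is a match of letters, not a measured site.
Cyp26a1: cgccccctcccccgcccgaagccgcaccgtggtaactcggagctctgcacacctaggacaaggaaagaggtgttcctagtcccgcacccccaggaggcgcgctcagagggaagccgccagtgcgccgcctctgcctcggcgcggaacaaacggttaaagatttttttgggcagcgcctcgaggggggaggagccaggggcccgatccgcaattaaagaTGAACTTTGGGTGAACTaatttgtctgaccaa

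Between 14275793 and 20815066 fragments per library were counted on genes on the strand that the kit reads, and levels are given as CPM, counts scaled to a common library size after TMM normalisation. For 7 of the 12 mice (VDD4, VDD5, VDD6 and VDS3 through VDS6) the study recorded a liver weight, and for the other 5 (VDD1, VDD2, VDD3, VDS1 and VDS2) it did not, so each diet effect was also taken within these sets of mice. VDD2 stood apart from the other libraries: it had the lowest CPM of all 12 for 17.6% of the genes tested and the highest for 18.6%, and it was lowest for 7 of the 10 members. The hepatocyte marker list, led by Alb, summed to 111764 to 132279 CPM in VDD-F1 and to 96699 to 121038 CPM in VDS-F1, so the tissue label held in every library. Of 83 tested markers in 11 lists of liver and blood cell types and RNA quality, none was a differentially expressed gene (DEG, defined below), 13 were higher and 14 lower in VDD-F1 at an unadjusted p-value under 0.05. This was more often than among all genes tested, of which 9.55% were higher and 6.29% lower, while the summed levels of the groups overlapped for all 11 lists.

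Per kilobase of exon, the 10 genes spanned more than 3 orders of magnitude in VDS-F1 livers. Rbp4 was highest, with 1996 ± 213 CPM per kb (SD, n = 6), followed by Adh1 with 805 ± 71.3, Aldh2 with 436 ± 28 and Aldh1a1 with 218 ± 32.6 CPM per kb. Each of these was above the next in all 12 libraries. Adh4 (96.1 ± 7.66 CPM per kb) and Aldh1a7 (93.3 ± 15.2) could not be ordered in VDS-F1. Adh4 was above Aldh1a7 in 3 of 12 libraries, which were VDS1, VDS3 and VDS5. In VDD-F1, Aldh1a7 was above Adh4 in every liver by this length (means 109 and 72.5 CPM per kb). Adh5 followed with 51 ± 2.3 CPM per kb, below both in all 12. Adh6-ps1 (12.1 ± 2.88 CPM per kb) and Cyp26a1 (4.99 ± 3.89) changed places among the libraries, Adh6-ps1 being above Cyp26a1 in 7 of 12. In VDD-F1 the means stood the other way, at 4.99 ± 1.59 CPM per kb for Adh6-ps1 and 14.2 ± 17.9 for Cyp26a1. Adh7, the class IV enzyme known from stomach and other epithelia, was last with 0.401 ± 0.128 CPM per kb. Adh6a and Adh6b, the protein-coding genes between Adh1 and Adh6-ps1, had 1 and 11 counts over all 12 libraries. The levels depend on the length used: per kb of the longest transcript, Adh1 had 1204 and Aldh1a1 456 CPM per kb in VDS-F1, the order of the means was the same, and Adh5 was below Aldh1a7 in 11 of 12 libraries.

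**Figure D1:**
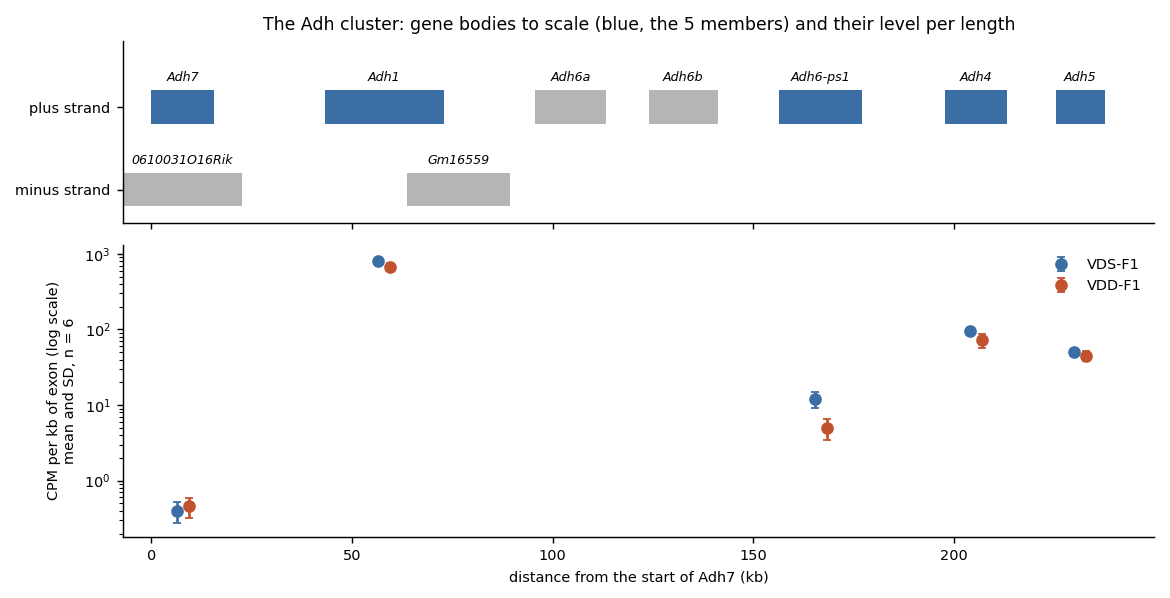
Top, gene bodies of the Adh cluster by distance in kb from the start of Adh7, on the plus and minus strand, with the 5 members in blue. Bottom, mean CPM per kb of exon (log scale, bars SD, n = 6) of the same 5 genes in VDS-F1 and VDD-F1, from 0.401 for Adh7 to 805 for Adh1 in VDS-F1.

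The comparison of VDD-F1 with VDS-F1 asks whether vitamin D deficiency before birth and early in life leaves a mark on these genes in the adult liver. A DEG was a gene with an adjusted p-value under 0.05 (edgeR quasi-likelihood test, Benjamini-Hochberg over all genes tested) that also differed by more than 1 in either direction on the log2 scale. None of the 10 members was a DEG, as against 5 of all 12453 genes (0.0402%). At an unadjusted p-value under 0.05, 5 members were lower in VDD-F1 (Adh6-ps1, Aldh1a1, Adh4, Adh1 and Aldh2), where 6.29% of all genes were, and 0 were higher, where 9.55% of all genes were. This split depends on the scale: over all genes, 1189 were higher and 783 lower, against 1377 and 506 with the library totals and 513 and 3142 with the summed hepatocyte markers as the scale, which moved the median of all genes to -0.18. At that threshold 5 members were lower and 1 (Aldh1a7) higher with the library totals, and 7 were lower and 0 higher on the hepatocyte scale. The log2-fold change was negative for 7 of the 10 members and positive for Aldh1a7, Adh7 and Cyp26a1. Its median was -0.21 over the members and 0.00 over all genes tested. Because the members were chosen with earlier results of these data known, these shares and medians are descriptions and no test of the set.

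**Figure D2:**
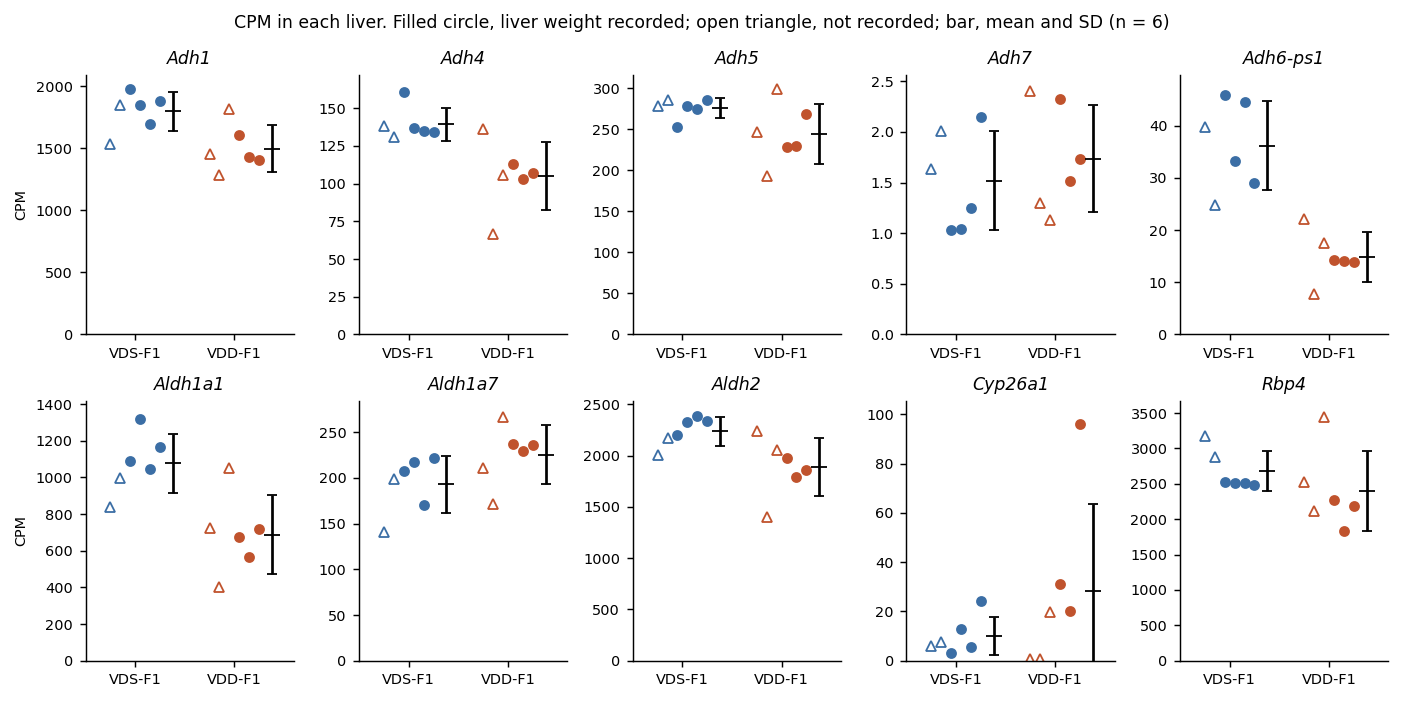
CPM of each of the 10 genes in every liver, with VDS-F1 left and VDD-F1 right, filled circles for mice with and open triangles for mice without a recorded liver weight, and bars for mean and SD (n = 6). Adh6-ps1 is the gene whose groups are apart, with 22.1 CPM as the highest VDD-F1 value and 24.8 CPM as the lowest VDS-F1 value.

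Adh6-ps1, by its name a pseudogene of the class V alcohol dehydrogenases, gave the smallest p-value of the 10. Its level was 22.1, 7.67, 17.5, 14.3, 14 and 13.8 CPM in VDD1 to VDD6 and 39.7, 24.8, 46, 33.2, 44.5 and 29 CPM in VDS1 to VDS6. All 6 VDD-F1 livers were below all 6 VDS-F1 livers. The means were 14.9 ± 4.75 CPM in VDD-F1 and 36.2 ± 8.59 CPM in VDS-F1 (SD, n = 6 each), which gave -1.29 ± 0.22 (SE) on the log2 scale. The edgeR quasi-likelihood test gave an unadjusted p of 3.19e-05 and an adjusted p of 0.0592, just above the threshold of 0.05. Of all genes tested, 0.570% had VDD-F1 values all below and 0.610% all above those of VDS-F1, and Adh6-ps1 was the single member among them. The Adh6-ps1 call depended on the setting: its adjusted p was 7.69e-06 with DESeq2, and it ran from 0.00534 without VDD1 to 0.162 without VDS3 as each mouse was left out.

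The difference in Adh6-ps1 was present in both sets of mice. The log2-fold change was -1.44 ± 0.16 (SE, edgeR adjusted p = 2.29e-04) in the 7 mice with a recorded liver weight and -1.04 ± 0.42 (unadjusted p = 0.0441, adjusted p = 1) in the other 5. The difference between these values, -0.40 ± 0.45, gave an adjusted p of 0.869 in edgeR. Scaled to Adh1 in the same library, which removes the library's total, Adh6-ps1 had 0.00599 to 0.0152 counts per count of Adh1 in VDD-F1 and 0.0134 to 0.0263 in VDS-F1, and these ranges overlapped. The longest Adh6-ps1 transcript was distinct in sequence from its neighbours. It was identical to Adh1 at 76.1% of 134 alignable bases, to Adh6b at 65.1% of 238 and to Adh6a at 61.3% of 199. Of its 50-base windows, 95.2% were found in no other gene, and the rest recurred in 106 other genes. The 4 windows of Adh1 found in Adh6-ps1 lie in its other annotated transcript, which was not compared. Of the Adh6-ps1 counts on either strand, 99.6% were on the sense strand.

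The qRT-PCR primers listed for Adh6-ps1 were looked up because they name the transcript that was assayed. They did not match an annotated transcript of any gene (GENCODE, both orientations), with at least 9 mismatches in the transcripts of Adh6-ps1, whereas all 8 primers of the 4 other target genes matched their target. The genome outside annotated transcripts was not searched.
Adh6-ps1 forward: ggctaacctctgtcatctctgc
Adh6-ps1 reverse: gatggccttaagtcggttttcc

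Aldh1a1, the main cytosolic retinaldehyde dehydrogenase of the liver, had 724, 401, 1050, 673, 564 and 716 CPM in VDD1 to VDD6 and 839, 998, 1087, 1317, 1048 and 1167 CPM in VDS1 to VDS6. In VDD-F1, 5 livers were below every VDS-F1 liver, and VDD3 lay inside the VDS-F1 range. The log2-fold change was -0.65 ± 0.19 (SE), with an unadjusted p of 0.00366 and an adjusted p of 0.12 (edgeR). It was -0.83 ± 0.11 (adjusted p = 7.18e-04, edgeR) in the mice with a recorded liver weight and -0.34 ± 0.37 (adjusted p = 1) in the others, and the difference between the sets was not past the threshold (adjusted p = 0.774). With DESeq2 the adjusted p was 0.0208, and without VDD3 that of edgeR was 0.0364.

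Aldh1a7, its close relative, stood the other way. It had 211, 171, 267, 237, 229 and 236 CPM in VDD1 to VDD6 and 141, 199, 208, 217, 170 and 222 CPM in VDS1 to VDS6. In VDD-F1, 4 livers were above every VDS-F1 liver, while VDD1 and VDD2 lay inside the VDS-F1 range. The log2-fold change of 0.22 ± 0.13 (SE) gave an adjusted p of 0.409 (edgeR). With the summed hepatocyte markers as the scale in place of the library's counts, it was 0.02.

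The ratio of the pair within each library does not depend on any scaling of libraries. There were 3.43, 2.34, 3.94, 2.83, 2.46 and 3.03 counts of Aldh1a1 per count of Aldh1a7 in VDD1 to VDD6, and 5.96, 5.02, 5.22, 6.05, 6.18 and 5.26 in VDS1 to VDS6. The groups did not overlap, with means of 3.01 ± 0.604 in VDD-F1 livers and 5.62 ± 0.503 in VDS-F1 livers (SD, n = 6 each). VDD2, the library that stood apart, was lowest, and the remaining VDD-F1 values were below every VDS-F1 value too. This ratio was formed after the values were seen and is given without a test.

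**Figure D3:**
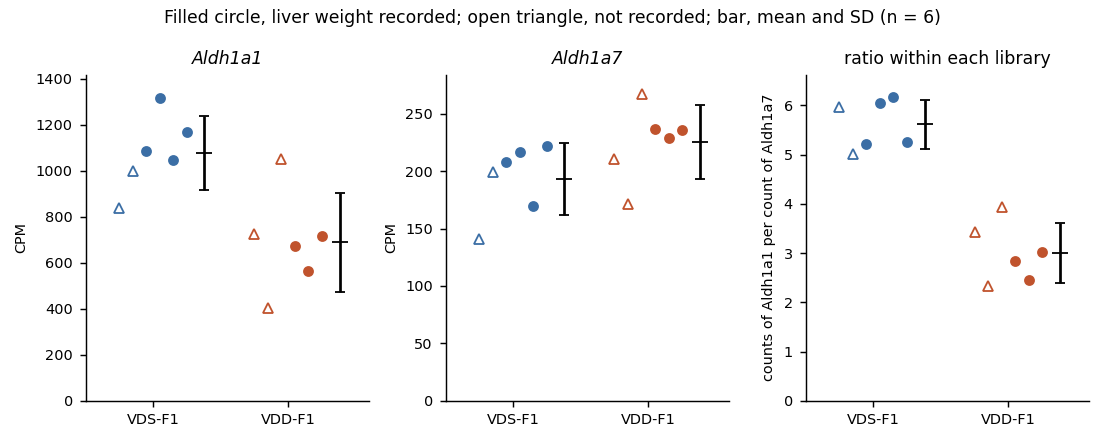
CPM of Aldh1a1 and of Aldh1a7, and counts of Aldh1a1 per count of Aldh1a7, in each liver by group, with filled circles for mice with and open triangles for mice without a recorded liver weight (bars, mean and SD, n = 6). The ratio lies between 2.34 and 3.94 in VDD-F1 and between 5.02 and 6.18 in VDS-F1.

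Adh4, the class II enzyme of the hepatocyte, had 136, 66.5, 106, 113, 103 and 107 CPM in VDD1 to VDD6, and 138, 131, 161, 137, 135 and 134 CPM in VDS1 to VDS6. VDD1 was inside the VDS-F1 range and the other 5 VDD-F1 livers were below it. The log2-fold change was -0.41 ± 0.13 (SE), with an unadjusted p of 0.00734 and an adjusted p of 0.154 (edgeR). As each mouse was left out it ran from -0.49 without VDD1, where the adjusted p was 0.0442, to -0.30 without VDD2, where it was 0.187. It was -0.40 ± 0.09 (adjusted p = 0.015, edgeR) in the 7 mice with a recorded liver weight and -0.39 ± 0.29 (adjusted p = 1) in the other 5.

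The abundant enzymes of ethanol oxidation differed by less. Adh1, the class I enzyme that carries most hepatic ethanol oxidation, ranged from 1281 to 1814 CPM (median 1440) in VDD-F1 and from 1532 to 1978 CPM (median 1848) in VDS-F1, a log2-fold change of -0.26 ± 0.11 (SE, unadjusted p = 0.0259, adjusted p = 0.247, edgeR). Aldh2 ranged from 1405 to 2244 CPM (median 1917) in VDD-F1 and from 2003 to 2387 CPM (median 2262) in VDS-F1, a log2-fold change of -0.24 ± 0.11 (unadjusted p = 0.0486, adjusted p = 0.312, edgeR). In each of them 4 of 6 VDD-F1 livers were below every VDS-F1 liver and the groups overlapped. Counts of Adh1 per count of Aldh2 were 0.801 ± 0.0946 in VDD-F1 livers and 0.804 ± 0.0671 in VDS-F1 livers (SD, n = 6 each), which differed by less than the spread between mice. Adh5, the glutathione-dependent formaldehyde dehydrogenase, had a log2-fold change of -0.17 ± 0.10 (adjusted p = 0.412, edgeR), with 193 to 299 CPM in VDD-F1 and 252 to 286 CPM in VDS-F1.

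Among the 7 mice with a recorded liver weight, 6 members had an adjusted p-value under 0.05 in edgeR, where 11% of the genes tested there did. They were Adh1 (-0.32), Adh4, Adh6-ps1, Aldh1a1 and Aldh2 (-0.30), all lower in VDD-F1, and Cyp26a1, which was higher. In the other 5 mice no member and no gene did in edgeR, where 473 genes and, of the members, Adh6-ps1 had an unadjusted p-value under 0.05. The difference of the diet effect between the sets gave no member an adjusted p-value under 0.05, and 0.0883% of all genes had such a value. Over all mice, 2 members had an adjusted p-value under 0.05 with DESeq2 (Adh6-ps1 and Aldh1a1), where 4.05% of all genes did. With the hepatocyte markers as the scale the same count was 2 members, where 1.08% of all genes did.

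**Figure D4:**
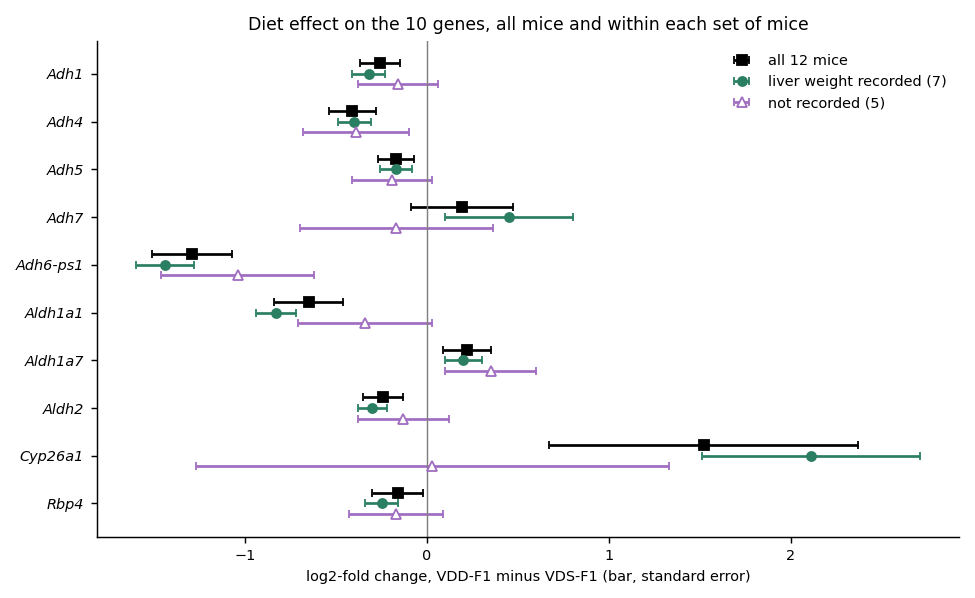
Log2-fold change (VDD-F1 minus VDS-F1, bars standard error) of the 10 genes over all 12 mice, in the 7 mice with a recorded liver weight and in the other 5. Adh6-ps1 is at -1.29, -1.44 and -1.04, and Cyp26a1 at 1.52, 2.11 and 0.03.

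Cyp26a1 spread most among the livers of a group, with the largest standard error of the 10 genes. It had 0.884, 0.574, 19.6, 31.2, 20.3 and 96.2 CPM in VDD1 to VDD6, and 5.92, 7.49, 3.16, 12.7, 5.76 and 24.3 CPM in VDS1 to VDS6. VDD4 and VDD6 were above every VDS-F1 liver, and VDD1 and VDD2, with 14 and 11 counts, were below every VDS-F1 liver. The log2-fold change of 1.52 ± 0.85 (SE) gave an adjusted p of 0.407 (edgeR) and rested on VDD6, since it was 0.55 without that mouse and 2.0 without VDS6. It was 2.11 ± 0.60 (adjusted p = 0.0444, edgeR) in the mice with a recorded liver weight and 0.03 ± 1.30 in the others. The difference between these, 2.10 ± 1.45, gave an unadjusted p of 0.173. At a given diet, Cyp26a1 was higher in the mice with a recorded liver weight by 1.87 ± 0.80 on the log2 scale, with an unadjusted p of 0.0347 and an adjusted p of 0.3 (edgeR).

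Rbp4, made by hepatocytes for export of retinol, had 1835 to 3450 CPM (median 2235) in VDD-F1 and 2482 to 3175 CPM (median 2518) in VDS-F1. VDD3 was above and 4 VDD-F1 livers were below every VDS-F1 liver. The log2-fold change was -0.16 ± 0.14 (adjusted p = 0.626, edgeR). Rbp4 was lower in the mice with a recorded liver weight than in the others at a given diet, by -0.32 ± 0.12 on the log2 scale (unadjusted p = 0.0174, adjusted p = 0.218, edgeR). No member had an adjusted p-value under 0.05 for the set of mice, where 2.46% of all genes did.

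Adh7 was near the limit of the counts, with 15 to 38 counts per library, and its direction could not be settled. Levels were 1.13 to 2.4 CPM in VDD-F1 and 1.03 to 2.15 CPM in VDS-F1, a log2-fold change of 0.19 ± 0.28 (adjusted p = 0.784, edgeR). Its whole length lies opposite to the antisense gene 0610031O16Rik, whose exons share 108 bases with those of Adh7. Of the counts at Adh7 on either strand, 11.7% were on its own strand, and 0610031O16Rik had 3886 counts over all libraries against 328 for Adh7. Counted without regard to strand, the log2-fold change of Adh7 became -0.40, next to -0.43 for 0610031O16Rik counted in the same way. At the other members at least 99.4% of counts were on the sense strand, Gm16559 opposite Adh1 and C730002L08Rik opposite Aldh1a1 having 156 and 87 counts in all.

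The lists around these genes were chosen by name, and no gene of the 8 lists was a DEG among the 56 tested. Of these, 4 had an unadjusted p-value under 0.05 and were higher in VDD-F1 (Aldh1b1, Aldh18a1, Dhrs9 and Lpl), and 3 were lower (Aldh1l1, Cyp2e1 and Cat), while 9.55% of all genes tested were higher and 6.29% lower at this threshold, so these counts are near or below the background and are no result about the lists. The median log2-fold change over the 56 genes was -0.02. With DESeq2, 3 of the 56 were DEGs (Aldh1b1, Dhrs9 and Lpl), as were 253 of all 12453 genes tested. No test of the lists was made. Within the 7 mice whose liver weight was recorded, 6 genes of the lists were DEGs in edgeR, as were 536 of all 12369 genes tested there. They were Aldh1b1, Dhrs9, Lpl and Rarb, higher in VDD-F1, and Acss3 and Cyp2e1, lower. None of the 6 had an adjusted p-value under 0.05 in the other 5 mice or for the difference between the sets, which ran from 0.335 for Acss3 to 0.826 for Lpl.

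Of the other aldehyde dehydrogenases, 12 of 18 were tested, 2 were higher and 1 was lower at an unadjusted p-value under 0.05, and the median log2-fold change was -0.03. Aldh1b1, a mitochondrial enzyme that oxidises acetaldehyde and retinaldehyde, had 76.5, 243, 83.6, 181, 159 and 205 CPM in VDD1 to VDD6 and 58.9 to 101 CPM in VDS-F1. VDD1 and VDD3 were inside the VDS-F1 range and the other 4 were above it, for a log2-fold change of 1.03 ± 0.25 (adjusted p = 0.0934 in edgeR and 0.00451 in DESeq2). In the mice with a recorded liver weight it was 1.31 ± 0.12 (adjusted p = 5.71e-05, edgeR). Aldh1l1, the cytosolic formyltetrahydrofolate dehydrogenase, had a log2-fold change of -0.30 ± 0.12 (adjusted p = 0.236), and Aldh18a1, of proline synthesis, of 0.77 ± 0.35 (adjusted p = 0.307). Aldh1a2 and Aldh1a3, the other retinaldehyde dehydrogenases, did not pass the filter, with at most 0.413 and 1.77 CPM in any liver. Of the other alcohol dehydrogenases only Adhfe1 was tested, with a log2-fold change of 0.01 ± 0.09.

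Of the other enzymes of ethanol and acetate handling, 5 were tested and 2 were lower at an unadjusted p-value under 0.05. Cyp2e1, the microsomal ethanol oxidase, had 4220, 2130, 6037, 2527, 2098 and 2243 CPM in VDD1 to VDD6 and 4633 to 6542 CPM in VDS-F1. VDD3 lay inside the VDS-F1 range, VDD1 just below it, and the other 4 far below, for a log2-fold change of -0.75 ± 0.25 (adjusted p = 0.174 in edgeR and 0.046 in DESeq2). In the mice with a recorded liver weight it was -1.26 ± 0.13 (adjusted p = 1.29e-04, edgeR). Catalase (Cat), which oxidises ethanol in peroxisomes, had a log2-fold change of -0.33 ± 0.13 (adjusted p = 0.235), and Acss3, an acyl-CoA synthetase, of -0.40 ± 0.34 (adjusted p = 0.601). Acss3 was at -1.28 ± 0.15 (adjusted p = 3.69e-04, edgeR) in the mice with a recorded liver weight and at 0.42 ± 0.52 (adjusted p = 1) in the others, and the difference between the sets had an unadjusted p of 0.00737 and an adjusted p of 0.335.

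In the liver lobule, Cyp2e1 and Aldh1a1 are known from hepatocytes near the central vein. The summed level of 9 markers of these pericentral hepatocytes ran from 3589 to 9834 CPM in VDD-F1 and from 7639 to 10008 CPM in VDS-F1. Cyp2e1 is itself one of them and made up much of the sum, with means of 3209 of 5642 CPM in VDD-F1 and 5391 of 8843 CPM in VDS-F1. At an unadjusted p-value under 0.05, 4 of the 9 were lower in VDD-F1, Cyp2e1 among them, where 6.29% of all genes were. No pericentral marker was at 0. Glul, the most restricted of them, had 1309, 392, 1568, 313, 298 and 261 CPM in VDD1 to VDD6 and 918 to 1477 CPM in VDS-F1. The 9 periportal markers summed to 7801 to 12866 CPM in VDD-F1 and 8456 to 10847 CPM in VDS-F1. Of the 9, 3 were higher and 1 lower in VDD-F1 at an unadjusted p-value under 0.05, where 9.55% of all genes were higher and 6.29% lower. The part of the pericentral and periportal markers in the values of Aldh1a1, Adh4 and Cyp2e1 was not tested. VDD1 and VDD3, high for Glul, were also the highest VDD-F1 livers for Cyp2e1, Adh6-ps1 and Aldh1a1, the last with 724 CPM in VDD1 close to 716 in VDD6. Of the other pericentral markers, Oat, Slc1a2, Tbx3 and Slco1b2 were highest in VDD1 and VDD3 too, while Lgr5, Rgn and Axin2 were not. VDD3 had the lowest VDD-F1 value of Lgr5 (4.29 CPM). It had 577 CPM of Rgn against 587 in VDD6, and 11.2 CPM of Axin2 against 11.3 in VDD4. For Adh4, VDD1 was highest (136 CPM) and VDD3 (106 CPM) was not among the highest.

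**Figure D5:**
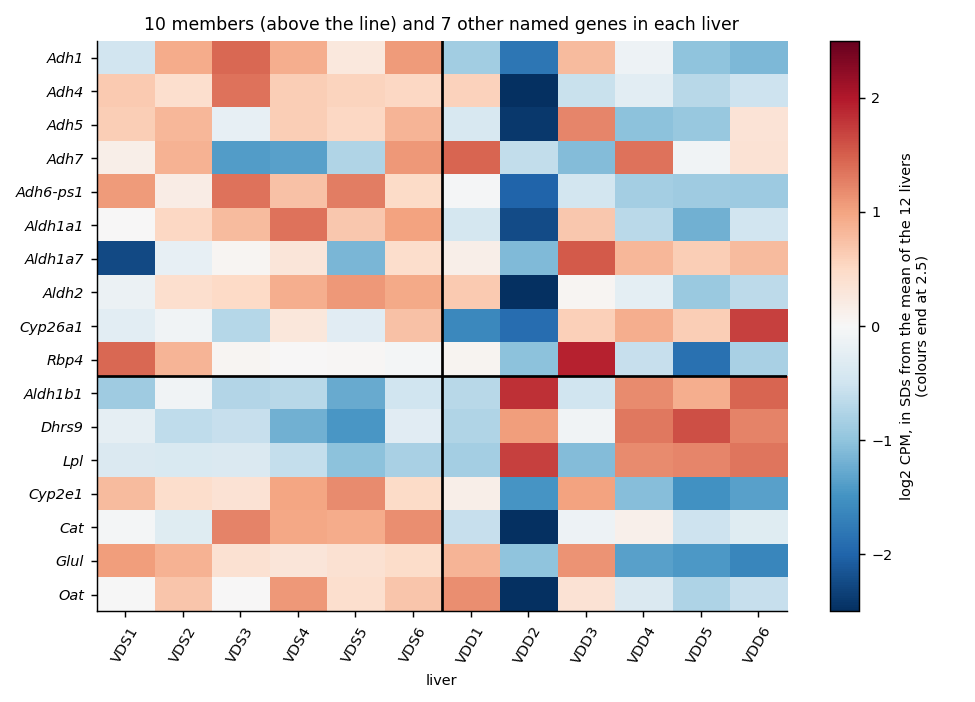
Log2 CPM of the 10 members (above the line) and of 7 other named genes in each of the 12 livers, as SDs from the gene's mean over all livers, red high and blue low, with colours ending at 2.5. VDD2 has the lowest value for 7 of the 10 members, and VDD1 and VDD3 resemble the VDS-F1 livers for Aldh1b1, Lpl, Cyp2e1 and Glul.

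Among retinol dehydrogenases and retinaldehyde reductases, 12 of 16 were tested and 1 was higher at an unadjusted p-value under 0.05. Dhrs9, a retinol dehydrogenase, had 4.04, 14.9, 6.55, 18.2, 22.4 and 17.2 CPM in VDD1 to VDD6 and 2.43 to 5.92 CPM in VDS-F1, and all VDD-F1 livers but VDD1 were above the VDS-F1 range. Its log2-fold change was 1.69 ± 0.37, with an adjusted p of 0.0812 in edgeR and 7.39e-04 in DESeq2, and it was 2.32 ± 0.24 (adjusted p = 1.26e-04, edgeR) in the mice with a recorded liver weight. Rdh14 (0.22 ± 0.12) and Dhrs3, which returns retinaldehyde to retinol (-0.20 ± 0.13), had adjusted p-values of 0.411 and 0.488 in edgeR.

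In retinol storage and carotenoid cleavage, 12 of 13 genes were tested and Lpl alone had an unadjusted p-value under 0.05. Lpl, the lipoprotein lipase, had 12.4, 139, 10, 84.6, 87.1 and 97.5 CPM in VDD1 to VDD6 and 10.5 to 19.8 CPM in VDS-F1, with a log2-fold change of 2.14 ± 0.52 (adjusted p = 0.0918 in edgeR and 0.0121 in DESeq2). VDD1 was inside the VDS-F1 range, VDD3 just below it and the other 4 far above it, and the change was 2.61 ± 0.17 (adjusted p = 4.12e-06, edgeR) in the mice with a recorded liver weight. Bco2, which cleaves carotenoids, and Dgat1 had log2-fold changes of -0.34 ± 0.16 and -0.20 ± 0.11 with adjusted p-values of 0.319 and 0.374. Of the binding and transport proteins, 3 of 10 were tested and none had an unadjusted p-value under 0.05. Stra6l, a retinol-binding protein receptor, was at -0.16 ± 0.08 (adjusted p = 0.381), Fabp5 at 0.29 ± 0.65 (adjusted p = 0.872) and Ttr, which carries Rbp4 in plasma, at 0.01 ± 0.11 (adjusted p = 0.977).

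Other enzymes of retinoic acid oxidation (5 of 6 tested) and the retinoid receptors (6 of 6 tested) gave no gene with an unadjusted p-value under 0.05. Cyp26b1, which like Cyp26a1 clears retinoic acid, had a log2-fold change of -0.86 ± 0.71 (adjusted p = 0.588, edgeR), with 0.835 to 24.7 CPM in VDD-F1 and 4.59 to 36.3 CPM in VDS-F1. Aox3 was at -0.27 ± 0.24 (adjusted p = 0.619) and Cyp2c39 at 0.58 ± 0.62 (adjusted p = 0.692). Of the receptors, Rxra was at -0.20 ± 0.10 (adjusted p = 0.32), Rarb, itself a target of retinoic acid, at 0.51 ± 0.35 (adjusted p = 0.511, and 0.0461 within the 7 mice of known liver weight), and Rara at -0.14 ± 0.13 (adjusted p = 0.635).

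For the 3 members with the smallest p-values, the genes whose pattern over the 12 livers was most like theirs were found by the root mean square difference of standardised log2 CPM, which was 1.41 for the median gene against Adh6-ps1 and Aldh1a1 and 1.4 against Adh4. Nearest to Adh6-ps1 were Mup1 (0.294), Kmo (0.307) and Mup12 (0.32). Mup1 and Mup12 belong to the major urinary protein family, whose near-identical copies make their counts uncertain, and Kmo encodes kynurenine monooxygenase. Nearest to Aldh1a1 were Cyp2c50 (0.272), Gcdh (0.304) and Ido2 (0.318), and nearest to Adh4 were Slc17a3 (0.242), Aifm1 (0.317) and Gm35696 (0.323). Among the members themselves, Adh4 and Adh6-ps1 were the closest pair (0.423), followed by Adh1 and Aldh1a1 (0.437), whereas Aldh1a1 and Aldh1a7, neighbours on the chromosome, were 1.31 apart. These are descriptions over livers of both diets, so any gene that differed between the diets in the same direction would be near.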

How the data were processed

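Livers of 12 mice were profiled by total RNA-seq. The authors aligned the reads with STAR to mm10 (GRCm38), and the deposited values are raw fragment counts per gene for either strand setting. The reverse-strand count was used, which held 92.7% to 95.8% of stranded counts in each library. The summary lines that name no gene were left out (23.5% to 37.9% of fragments were unmapped). Identifiers were matched to GENCODE symbols, 52403 of 52636. A mean count of 12 or more was required, and these genes were tested with edgeR 4.0.16 (quasi-likelihood, TMM, R 4.3.3), with DESeq2 1.42.0 as an alternative. A gene of the lists is not reported here. The test was checked on simulated counts. The members and gene lists were chosen with earlier results of these data known. Named genes were the members, up to 3 genes per pathway list by p-value, the 3 genes nearest to each of 3 members, overlapping genes and leading markers, and beyond this rule Aldh1a2, Aldh1a3, Adh6a and Adh6b were named after their values were seen. Identities were computed from GENCODE transcripts, with coding sequences translated. Nothing in the labels names litters, so p-values measure the spread between these mice. The mouse sets follow the study's record of liver weights, by library number.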

Additional observations from a re-analysis of the deposited data

Results flagged for a closer look

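A sample far from the others of its group was looked for in 64 groups of 6 livers (32 genes), and 8 were found. Chance gives about 1 in 20 groups. Among the members, Adh4 had 161 CPM in VDS3 against 131 to 138 CPM in the other VDS-F1 livers, Adh5 had 252 CPM in VDS3 against 275 to 286 CPM, and Cyp26a1 had 96.2 CPM in VDD6 against 0.574 to 31.2 CPM in the other VDD-F1 livers. VDD2 was far from the other VDD-F1 livers for Aldh1l1 (876 CPM, others 1199 to 1364), Cat (1876 CPM, others 2662 to 3017) and Aldh18a1 (7.46 CPM, others 2.42 to 3.73). Among VDS-F1 livers, VDS6 was far from the others for Dhrs3 (288 CPM, others 209 to 225) and Cyp26b1 (36.3 CPM, others 4.59 to 15.5).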

How the results depend on the processing

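All 24 alternatives to the diet test gave 9 of the 10 members their direction. The exception was Adh7, at -0.40 with a count that ignores the strand and -0.17 in the 5 mice with no weight on record. The number of members that were DEGs (0) became 1, which was Adh6-ps1, with DESeq2, without TMM, with the hepatocyte scale, with either laxer filter on low counts, with the newer quasi-likelihood form and with the set of mice as a covariate, and 2 (with Cyp26a1) in the 7 mice with a weight. It was 0 to 1 with a mouse left out (1 without VDD1, VDD2, VDD3 or VDS2). Members with an unadjusted p-value under 0.05 (5) became 1 in the 5 mice with no weight on record and 3 (without VDD6 or VDS3) to 7 (without VDD3) with a mouse left out. DEGs over all genes (5) became 253 with DESeq2, 40 with the hepatocyte scale, 70 with every gene counted at least once, 17 with the newer form, 21 with the set covariate, 536 in the 7 mice with a weight and 0 in the 5 mice with no weight on record, and ranged from 0 (without VDD4, VDD5, VDD6, VDS3, VDS4 or VDS5) to 260 (without VDD1) with a mouse left out, being 94 without VDD3, 12 without VDS2 and 1 without VDS6. DEGs of the pathway lists (0) became 3 with DESeq2, 2 with every gene counted at least once and 6 in the 7 mice with a weight, and ranged from 0 to 4 with a mouse left out (4 without VDD3 and 3 without VDD1). With every gene counted at least once, 1 member had an adjusted p-value under 0.05 for the difference between sets and 1 for the set itself, in place of 0. Members whose groups did not overlap (1) became 2 with the hepatocyte scale, and ranged from 1 to 2 with a mouse left out (2 without VDD1 or VDD3). The highest share of windows shared with another gene was 0.05% at 100 bases and 7.49% at 50 bases. Replicate numbers did not pair the mice (deviations of same-numbered mice correlated at -0.0762 to 0.103). With the replicate block, 1 member, 17 genes and 0 pathway genes were DEGs, and the adjusted p of Adh6-ps1 was 0.00599.

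The cause of these changes was not tested. With 6 mice per group, a difference of the size seen in Adh5 (-0.17) was not resolved from 0. Adh7 had 15 to 38 counts per library, too few for a direction. Levels per kb follow the lengths of the annotation.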
